A study of Homo sapiens with 12 samples.

Results

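The genes of cholesterol and fatty acid synthesis, with the SREBP regulators that govern them, were followed in 2 human kidney cancer cell lines in which FoxO3 or FoxO1 could be switched on. A set of 40 genes was chosen by known role, with earlier results of these data in view, and each was read from the probe set that the array annotation assigns to that gene alone and that had the highest mean over all arrays. Of the 40, 35 had such a probe set, out of 19775 genes in the whole table, and all 35 passed the filter on low values and were tested among 14283 genes. They comprised 15 of 17 sterol enzymes, all 6 SREBP regulators and sterol transport genes, 10 of 12 fatty acid synthesis genes, and 4 of 5 genes that feed fatty acids into acyl-CoA and glycerolipids. FDFT1, CYP51A1, ELOVL1, FADS1 and ACSL3 had no probe set of their own and were not analysed here.

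The cells were UMRC2 and RCC4, established lines from clear cell kidney cancer whose VHL tumour suppressor is not functional. In each, cells stably carried FoxO3(TA)-ERT2, FoxO1(TA)-ERT2 or, as the empty vector (EV) control, the ERT2 moiety without a FoxO. TA marks the replacement by alanine of the 3 residues through which AKT keeps FoxO out of the nucleus, and ERT2 is a modified estrogen receptor domain that 4-hydroxytamoxifen (4OHT) releases into the nucleus. The 6 engineered lines, all kept under puromycin, each received 100 nM 4OHT or ethanol as vehicle for 12 h, and RNA from each of the 12 combinations was hybridised to 1 Affymetrix U133 Plus 2.0 array. No combination was repeated, so the pair of cell lines served as the replicates of a construct (n = 2). A p-value for a construct sets its response against the spread left after construct and a line difference shared by all constructs were fitted. That spread includes array noise and was pooled over the 6 pairs and moderated across genes. Variation between cultures of 1 line was not measured. The fusions act by force in cancer cells in culture and are not the cells' own FoxO proteins.

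Cholesterol is built from acetyl-CoA through mevalonate, isoprenoid pyrophosphates, squalene and lanosterol, and fatty acids are built from the same acetyl-CoA through malonyl-CoA. Most of the enzymes of both branches are transcribed under SREBP factors, which SCAP escorts out of the endoplasmic reticulum when sterol is low and which INSIG proteins hold back when sterol is plentiful. Clear cell kidney cancers are known for stores of cholesteryl ester and triglyceride in their cytoplasm, and FoxO factors are known for control of lipid metabolism downstream of insulin in liver.

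Promoter stretches are shown for some members only. They are both INSIG genes, which moved in opposite directions, the sterol genes MVD and MSMO1, the desaturase SCD, the elongase ELOVL6, and SREBF2, whose response did not pass. Other members with a window, such as ACACA and IDI1, which fell, are not shown. The stretches are parts of longer windows, and those of SCD, ELOVL6 and SREBF2 are short cuts around their matches. They come from RefSeq (GRCh38.p14), are written 5′ to 3′ on the strand of the gene, and lie wholly before the transcription start. Capitals mark matches, on either strand, to 4 motifs: CCAAT, which NF-Y binds and which reads ATTGG where it lies on the other strand, CACGTG, the E-box, TCACNCCAC, the sterol regulatory element, and GTAAACA, the forkhead motif.
INSIG1, chr7:155297698-155297877, plus strand: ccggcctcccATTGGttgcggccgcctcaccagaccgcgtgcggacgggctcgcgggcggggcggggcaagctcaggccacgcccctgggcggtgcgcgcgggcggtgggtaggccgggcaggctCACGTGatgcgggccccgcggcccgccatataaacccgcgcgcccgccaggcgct
INSIG2, chr2:118088291-118088470, plus strand: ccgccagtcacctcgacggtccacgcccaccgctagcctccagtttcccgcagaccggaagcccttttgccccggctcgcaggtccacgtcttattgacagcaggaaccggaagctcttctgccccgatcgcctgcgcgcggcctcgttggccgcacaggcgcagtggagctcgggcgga
MVD, chr16:88663092-88663271, minus strand: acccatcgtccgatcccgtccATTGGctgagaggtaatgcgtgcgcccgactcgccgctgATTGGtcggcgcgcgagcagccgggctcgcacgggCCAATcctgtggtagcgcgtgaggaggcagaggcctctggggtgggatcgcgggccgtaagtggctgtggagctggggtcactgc
MSMO1, chr4:165327469-165327668, plus strand: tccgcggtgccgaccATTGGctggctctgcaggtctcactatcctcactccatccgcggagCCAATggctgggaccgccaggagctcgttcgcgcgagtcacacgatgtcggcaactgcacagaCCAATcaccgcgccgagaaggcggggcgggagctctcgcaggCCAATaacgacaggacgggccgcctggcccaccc
SCD, chr10:100346983-100347082, plus strand: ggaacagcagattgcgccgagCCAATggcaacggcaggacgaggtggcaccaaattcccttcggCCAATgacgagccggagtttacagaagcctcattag
ELOVL6, chr4:110198716-110198815, minus strand: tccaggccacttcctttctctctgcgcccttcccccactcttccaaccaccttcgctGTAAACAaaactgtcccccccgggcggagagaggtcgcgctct
SREBF2, chr22:41832925-41833044, plus strand: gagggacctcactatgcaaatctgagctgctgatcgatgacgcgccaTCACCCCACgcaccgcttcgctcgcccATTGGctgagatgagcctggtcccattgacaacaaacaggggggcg
The MVD stretch held 3 CCAAT matches and the MSMO1 stretch 4, the SCD stretch held 2, and the INSIG1 stretch held 1 CCAAT match and 1 E-box, while the INSIG2 stretch held none of the 4 motifs.

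Windows of 300 bases, 250 before to 50 after a start, were available for 36 members, and some genes had several, 54 in all. CCAAT lay in 55.6% of these member windows, against 34.6% of all 35116 windows in the table. The E-box lay in 11.1% of member windows against 7.26% of all, and TCACNCCAC in 3.70% against 1.13%, the matches being those of ACSL1 and SREBF2. GTAAACA lay in 1.85% of member windows, that of ELOVL6, against 3.42% of all. Windows of 1 gene can overlap, no match of a member overlapped one of another motif, and a match describes letters and not a bound site. Among members with a window, CCAAT was present in 13 of 16 that fell under FoxO3, in 1 of 3 that rose and in 10 of 13 that were not called. These counts are by gene over any of its windows, while the shares above are by window, and no share over all genes was counted. Members that fell and members not called thus held CCAAT to a similar extent, and the 3 that rose are too few to compare. A member not called may still have responded, and a link with the response was not tested.

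Before any comparison the arrays were checked. The median intensity as deposited ran over 71.1 to 138.7, and the spike-in controls lay at 2239 to 2463 in the 6 UMRC2 arrays, at 2515 in the RCC4 FoxO3 array with 4OHT and at 4212 to 4699 in the other 5 RCC4 arrays, so the RCC4 FoxO3 pair joins arrays of different scan level. All values here were therefore quantile-normalised, and a level is the log2 of that intensity. Of the markers of these lines, PAX8 (11.17 to 12.58), KRT8, KRT18 and VIM lay above 10 on the log2 scale in all 12 arrays. PAX2 lay lower, at 5.91 to 9.55, and NNMT ran from 4.28, near the floor, to 14.59. The endothelial marker CDH5 lay at the floor of 4.20 in all 12, while PECAM1, another endothelial marker, lay at 8.24 to 8.84. PTPRC, VWF, ALB, ADIPOQ and PLIN1 did not reach the filter, and of 10 markers of other cell types only PECAM1, CD3E and APOA1 were tested, with 0 past the threshold in limma for FoxO3 against EV and 0 at an unadjusted p under 0.05. Among the 6 renal line markers tested, PAX8 (-1.17 ± 0.15) and KRT18 (-1.47 ± 0.19) fell under FoxO3, and their part in the lipid gene results was not tested. The fusion transcripts could be seen through 5 of 9 ESR1 probe sets, picked for standing above EV, whose median level with vehicle was 13.23 and 12.49 in UMRC2 and RCC4 cells with FoxO3 and 12.29 and 9.22 in those with FoxO1, against 4.63 and 5.28 in UMRC2 and RCC4 EV cells. The ERT2 moiety that the labels give for EV cells was not visible in these probe sets.

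Genes of both branches of lipid synthesis were lower when FoxO3 was switched on. Relative to the 4OHT response of EV cells, 18 of the 35 members fell and 3 rose in limma (adjusted p under 0.05 over all genes, two-sided), where 10.0% of all genes tested fell and 6.61% rose. The median member changed by -0.89 on the log2 scale, against -0.07 for all genes. Of 35 values 30 were negative, as were 7779 of all 14283 genes. In the 2 FoxO3 pairs taken singly, 19 members were at least 2-fold lower than EV in UMRC2 and 13 in RCC4. Without subtraction of EV these counts were again 19 and 13, against 1559 and 1737 of all 14283 genes. Relative to EV, single pairs were not counted over all genes. In both pairs 11 members were at least 2-fold lower than EV, as were 6.23% of all genes. These 11 were ACACA, ELOVL5, ELOVL6, FASN, IDI1, INSIG1, MSMO1, MVD, SCD, SQLE and SREBF1. INSIG2 was the 1 member at least 2-fold higher in both FoxO3 pairs, a rule for which no share over all genes was counted. The count that fell was 14 without the RCC4 FoxO3 pair, whose arrays differ in scan level, and 10 with the intensities as deposited; of the 3 that rose only INSIG2 passed with median scaling, and none as deposited.

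**Figure D1:**
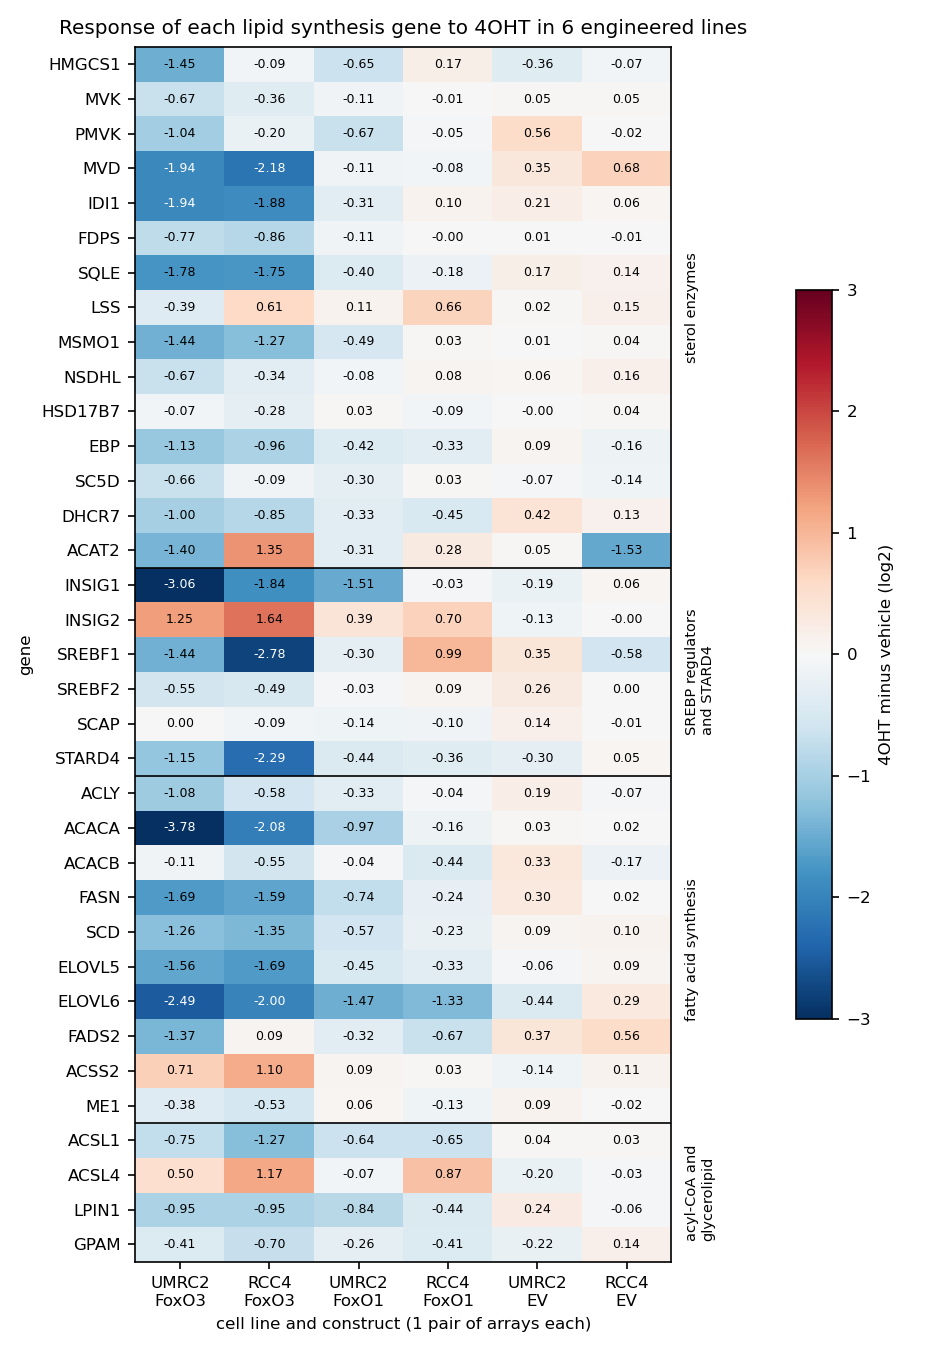
Response to 4OHT (log2 level with 4OHT minus log2 level with vehicle) of the 35 measured members, in rows by role, in the 6 engineered lines, in columns, each from 1 pair of arrays; colours saturate at ± 3. Blue cells fill most of both FoxO3 columns, where the lowest value is -3.78 for ACACA in UMRC2 and the highest 1.64 for INSIG2 in RCC4, while the EV columns stay between -0.58 and 0.68 apart from ACAT2 at -1.53 in RCC4.

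Among the sterol enzymes, 7 of 15 fell and 0 rose with FoxO3, with a median of -0.81. The largest estimate was that of MVD, the decarboxylase that ends the mevalonate pathway by making isopentenyl pyrophosphate. MVD stood at 6.67 with 4OHT against 8.61 with vehicle in UMRC2 FoxO3 cells and at 4.79 against 6.97 in RCC4 FoxO3 cells. It stood at 8.35 against 8.46 in UMRC2 FoxO1 and 6.67 against 6.75 in RCC4 FoxO1, and 8.38 against 8.04 in UMRC2 EV and 7.34 against 6.66 in RCC4 EV cells. All FoxO1 and EV pairs were thus close to level or higher with 4OHT, and only the FoxO3 pairs fell. The FoxO3 response was -2.57 ± 0.41 (adjusted p = 0.00666) beyond EV, a 5.95-fold fall. Its size is uncertain, because the RCC4 FoxO3 level with 4OHT, 4.79, was near the floor and within the range of VWF, a marker below the filter (4.58 to 5.80).

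IDI1, the isomerase that makes dimethylallyl pyrophosphate next in the pathway, was measured at 10.37 with 4OHT against 12.31 with vehicle in UMRC2 FoxO3 cells and at 9.80 against 11.68 in RCC4 FoxO3 cells. Its other pairs were 12.02 against 12.33 in UMRC2 FoxO1 and 11.66 against 11.56 in RCC4 FoxO1, and 12.62 against 12.41 in UMRC2 EV and 11.70 against 11.64 in RCC4 EV cells. The difference from EV was -2.04 ± 0.18 (adjusted p = 0.0015) for FoxO3, and both FoxO3 arrays with 4OHT lay below every other IDI1 value. Another bright probe set of IDI1 gave -2.12, while 2 dimmer ones gave 0.14 and 0.21, of opposite sign. SQLE, the epoxidase that commits squalene to sterols and a rate-limiting step, showed 10.99 against 12.77 in UMRC2 FoxO3 and 10.72 against 12.47 in RCC4 FoxO3 cells. Elsewhere SQLE stood at 12.34 against 12.75 in UMRC2 FoxO1 and 12.18 against 12.35 in RCC4 FoxO1, and 13.02 against 12.85 in UMRC2 EV and 12.54 against 12.40 in RCC4 EV cells. The FoxO3 response of SQLE was -1.92 ± 0.14 (adjusted p = 0.00103) beyond EV, or 3.78-fold lower, and it was nearly equal in the 2 lines, at -1.95 and -1.89 in UMRC2 and RCC4.

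Of the enzymes that turn lanosterol into cholesterol, MSMO1, DHCR7 and EBP fell as well. MSMO1, the methylsterol oxidase that strips methyl groups from the ring, stood at 11.02 against 12.46 in UMRC2 FoxO3 and 10.22 against 11.49 in RCC4 FoxO3 cells. Other MSMO1 pairs were 11.93 against 12.43 in UMRC2 FoxO1 and 11.45 against 11.42 in RCC4 FoxO1, and 12.60 against 12.58 in UMRC2 EV and 11.47 against 11.43 in RCC4 EV cells. Both FoxO3 arrays with 4OHT were the lowest of their line, and the estimate for FoxO3 was -1.38 ± 0.17 (adjusted p = 0.00306). DHCR7, the reductase of the last step, had 10.36 against 11.36 in UMRC2 FoxO3 and 10.02 against 10.88 in RCC4 FoxO3 cells. Its other pairs were 10.99 against 11.32 in UMRC2 FoxO1 and 10.50 against 10.95 in RCC4 FoxO1, and 11.45 against 11.03 in UMRC2 EV and 10.89 against 10.76 in RCC4 EV cells. DHCR7 thus dropped in every FoxO pair and in neither EV pair, with -1.20 ± 0.19 (adjusted p = 0.0061) for FoxO3. EBP, the sterol isomerase, read 10.96 against 12.09 in UMRC2 FoxO3 and 10.61 against 11.57 in RCC4 FoxO3 cells. In the remaining lines EBP read 11.62 against 12.04 in UMRC2 FoxO1 and 11.26 against 11.59 in RCC4 FoxO1, and 12.28 against 12.19 in UMRC2 EV and 11.43 against 11.59 in RCC4 EV cells. The FoxO3 arrays with 4OHT were again the lowest of each line. EBP fell by 1.01 ± 0.17 on the log2 scale with FoxO3 (adjusted p = 0.00786 in limma), and FDPS, the farnesyl pyrophosphate synthase, fell by 0.81 ± 0.16 (adjusted p = 0.0154).

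The other 8 sterol enzymes did not pass. PMVK was at -0.89 ± 0.35, NSDHL at -0.61 ± 0.21, MVK at -0.56 ± 0.18, and HMGCS1, the synthase that opens the mevalonate pathway, at -0.56 ± 0.31. SC5D (-0.28), HSD17B7 (-0.19) and LSS (0.02) lay within 2 standard errors of 0. For MVK and HMGCS1 the choice of probe set mattered: other bright probe sets of MVK gave -2.28 and -1.76, and another of HMGCS1 gave -1.31. ACAT2, the thiolase of the first step, read 10.42 against 11.82 in UMRC2 FoxO3 cells but only 5.87 against 4.52 in RCC4 FoxO3 cells, and its estimate of 0.72 ± 0.84 carried the widest error of all members.

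The fatty acid branch moved at least as far. Of its 10 measured genes 7 fell and 1 rose with FoxO3, and their median was -1.25. ACACA, the cytosolic acetyl-CoA carboxylase that makes malonyl-CoA, showed the largest fall of all members. Its level was 6.43 with 4OHT against 10.21 with vehicle in UMRC2 FoxO3 cells and at 8.75 against 10.83 in RCC4 FoxO3 cells. In the other lines it was 9.30 against 10.27 in UMRC2 FoxO1 and 10.66 against 10.82 in RCC4 FoxO1, and 9.95 against 9.92 in UMRC2 EV and 10.81 against 10.79 in RCC4 EV cells. The UMRC2 FoxO3 array with 4OHT held the lowest ACACA value, and the RCC4 FoxO3 array with 4OHT the next lowest. The estimate was -2.96 ± 0.37 (adjusted p = 0.00317 in limma), a 7.76-fold fall. A dimmer ACACA probe set, still bright, gave -1.04 with FoxO3 and -1.55 with FoxO1. Its mean response in EV cells was 1.16, so these values reflect a rise in EV and do not show a fall with FoxO3 itself. FASN, the fatty acid synthase itself, stood at 10.35 against 12.04 in UMRC2 FoxO3 and 10.05 against 11.63 in RCC4 FoxO3 cells. Its other pairs were 11.26 against 12.00 in UMRC2 FoxO1 and 11.49 against 11.73 in RCC4 FoxO1, and 12.13 against 11.83 in UMRC2 EV and 11.64 against 11.62 in RCC4 EV cells. FASN was lower with 4OHT in all 4 FoxO pairs and in neither EV pair, with -1.80 ± 0.21 (adjusted p = 0.0025) for FoxO3.

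Elongation and desaturation genes followed. ELOVL6, which elongates saturated and monounsaturated chains, had 8.04 against 10.53 in UMRC2 FoxO3 and 6.86 against 8.87 in RCC4 FoxO3 cells. With FoxO1 or EV, ELOVL6 had 8.59 against 10.05 in UMRC2 FoxO1 and 7.49 against 8.82 in RCC4 FoxO1, and 9.64 against 10.08 in UMRC2 EV and 9.05 against 8.76 in RCC4 EV cells. It was the 1 member at least 2-fold lower than EV in all 4 FoxO pairs, a rule that 0.595% of all genes met, and its FoxO3 estimate was -2.17 ± 0.27 (adjusted p = 0.00306). Both other bright ELOVL6 probe sets gave smaller values, -1.33 and -0.58 with FoxO3 and only -0.37 and -0.13 with FoxO1. ELOVL5, which elongates polyunsaturated chains, read 11.51 against 13.07 in UMRC2 FoxO3 and 11.56 against 13.25 in RCC4 FoxO3 cells. Elsewhere ELOVL5 read 12.73 against 13.18 in UMRC2 FoxO1 and 12.94 against 13.27 in RCC4 FoxO1, and 13.01 against 13.08 in UMRC2 EV and 13.27 against 13.18 in RCC4 EV cells. Its levels were alike in all vehicle arrays, and the FoxO3 response was -1.64 ± 0.13 (adjusted p = 0.00114); of 3 other ELOVL5 probe sets, 2 gave -0.43 and -0.41 and 1 gave 0.16, of opposite sign. SCD, the desaturase that makes monounsaturated fatty acids, showed 11.66 against 12.92 in UMRC2 FoxO3 and 10.97 against 12.32 in RCC4 FoxO3 cells. Other SCD pairs were 12.33 against 12.90 in UMRC2 FoxO1 and 12.14 against 12.37 in RCC4 FoxO1, and 12.89 against 12.80 in UMRC2 EV and 12.46 against 12.36 in RCC4 EV cells. SCD was thus lower with 4OHT in all 4 FoxO pairs and in neither EV pair. It changed by -1.40 ± 0.15 (adjusted p = 0.00213) with FoxO3, and its 3 other bright probe sets gave values between -1.45 and -0.81.

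The suppliers of acetyl-CoA and NADPH split. ACLY, which cleaves citrate to acetyl-CoA, fell by 0.89 ± 0.18 in log2 units (adjusted p = 0.0161 in limma), and ME1, a malic enzyme that yields NADPH, fell by 0.49 ± 0.13 (adjusted p = 0.0389), a call lost in each removal of a pair. ACSS2, which makes acetyl-CoA from acetate, rose: it stood at 10.41 with 4OHT against 9.70 with vehicle in UMRC2 FoxO3 cells and at 10.02 against 8.91 in RCC4 FoxO3 cells. The remaining pairs were 9.81 against 9.72 in UMRC2 FoxO1 and 8.73 against 8.70 in RCC4 FoxO1, and 9.51 against 9.65 in UMRC2 EV and 8.87 against 8.75 in RCC4 EV cells. Both FoxO3 arrays with 4OHT were above every other ACSS2 array of the same line, and the estimate was 0.92 ± 0.24 (adjusted p = 0.0391). FADS2, a desaturase of polyunsaturated chains, was at -1.11 ± 0.40 (adjusted p = 0.11) and did not pass, and neither did ACACB, the carboxylase at the mitochondrion, at -0.41 ± 0.22. The 3 dimmer probe sets of ACACB had the opposite sign, at 0.04, 0.37 and 2.40, as did 1 of ME1, at 0.71.

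Of the 4 genes of acyl-CoA and glycerolipid entry, 2 fell and 1 rose. ACSL1, an acyl-CoA synthetase, read 8.86 against 9.60 in UMRC2 FoxO3 and 9.75 against 11.02 in RCC4 FoxO3 cells. In the other lines it read 8.97 against 9.61 in UMRC2 FoxO1 and 10.28 against 10.93 in RCC4 FoxO1, and 9.91 against 9.88 in UMRC2 EV and 11.12 against 11.09 in RCC4 EV cells. ACSL1 was lower with 4OHT in all 4 FoxO pairs. LPIN1, a phosphatidate phosphatase of triglyceride synthesis, read 9.15 against 10.09 in UMRC2 FoxO3 and 9.16 against 10.12 in RCC4 FoxO3 cells. Other LPIN1 pairs were 9.29 against 10.12 in UMRC2 FoxO1 and 9.65 against 10.08 in RCC4 FoxO1, and 10.23 against 9.99 in UMRC2 EV and 10.23 against 10.29 in RCC4 EV cells. LPIN1 too was lower with 4OHT in all 4 FoxO pairs, and the FoxO3 estimates were -1.04 ± 0.23 (adjusted p = 0.0203) for ACSL1 and -1.04 ± 0.24 (adjusted p = 0.0259) for LPIN1. ACSL4, a synthetase with a preference for arachidonic acid, went the other way. It stood at 10.81 against 10.31 in UMRC2 FoxO3 and 10.76 against 9.59 in RCC4 FoxO3 cells. The FoxO1 and EV pairs were 10.30 against 10.37 in UMRC2 FoxO1 and 10.36 against 9.49 in RCC4 FoxO1, and 10.03 against 10.23 in UMRC2 EV and 9.59 against 9.62 in RCC4 EV cells. ACSL4 was higher with 4OHT in both FoxO3 pairs and in RCC4 FoxO1 cells. It rose by 0.95 ± 0.24 (adjusted p = 0.0361) with FoxO3, and GPAM, the mitochondrial glycerol-phosphate acyltransferase, was at -0.52 ± 0.25 and did not pass.

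**Figure D2:**
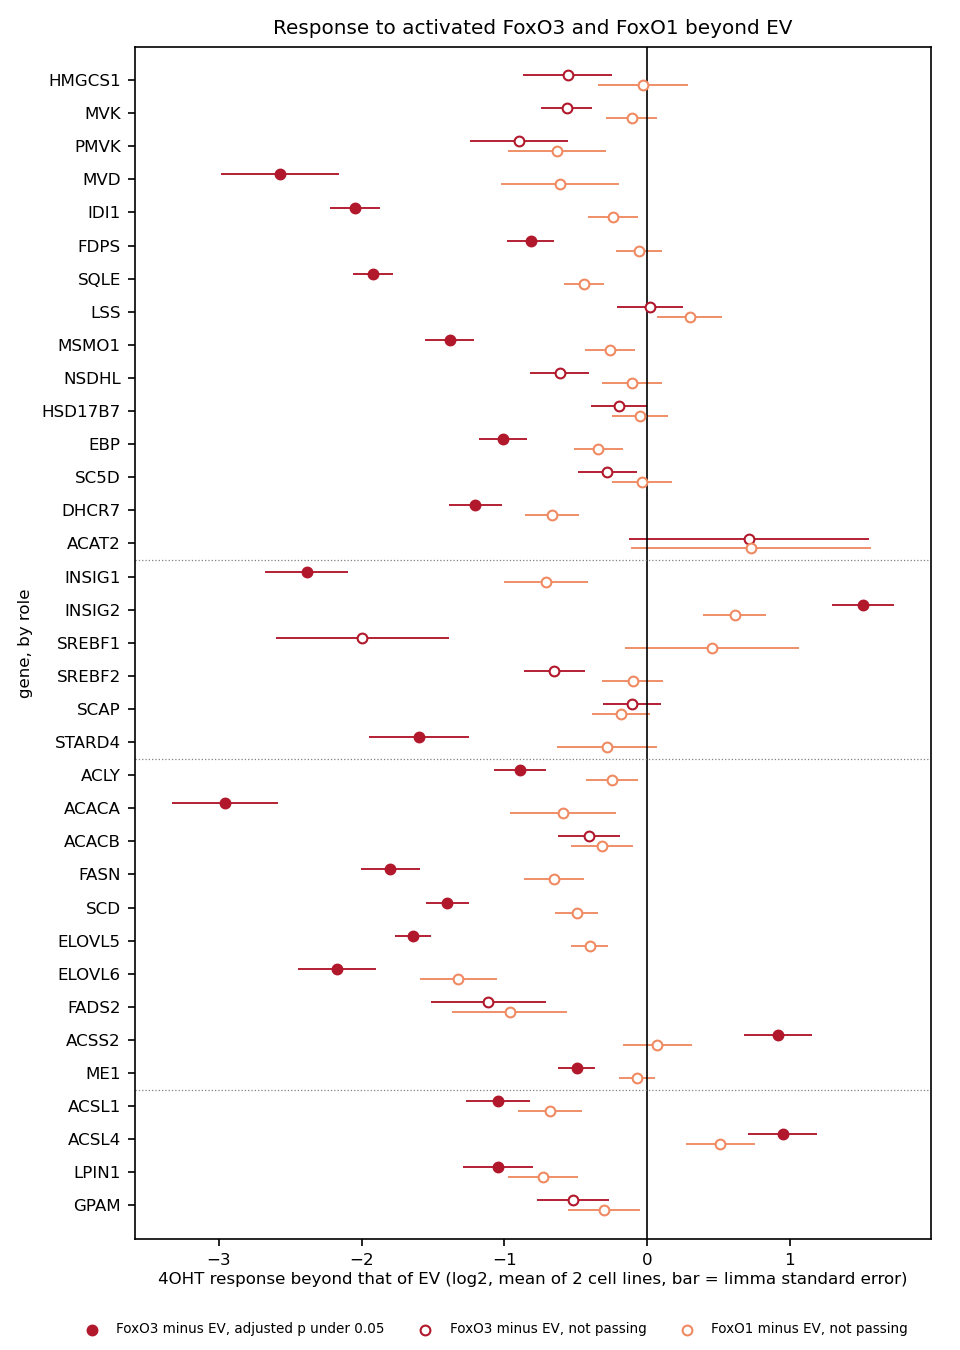
Response beyond EV to FoxO3 (dark points) and FoxO1 (light points) of the 35 members, in rows by role; the horizontal axis is a log2 difference, the mean of 2 cell lines, and bars are limma standard errors. Filled points passed an adjusted p of 0.05: 18 FoxO3 values to the left of 0, 3 to the right (INSIG2, ACSS2 and ACSL4) and no FoxO1 value.

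The regulators of SREBP did not move as 1 group. INSIG1, a retention protein of the endoplasmic reticulum and itself a known SREBP target, fell with FoxO3. It stood at 9.68 with 4OHT against 12.74 with vehicle in UMRC2 FoxO3 cells and at 8.30 against 10.14 in RCC4 FoxO3 cells. With FoxO1 or EV it stood at 11.16 against 12.67 in UMRC2 FoxO1 and 10.06 against 10.09 in RCC4 FoxO1, and 12.62 against 12.81 in UMRC2 EV and 10.27 against 10.21 in RCC4 EV cells. The lowest value of each line was its FoxO3 array with 4OHT, and the RCC4 FoxO1 pair was level. The FoxO3 response was -2.38 ± 0.29 (adjusted p = 0.00283) beyond EV, a 5.22-fold fall, and 2 other bright probe sets gave -2.17 and -1.74.

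INSIG2, which holds SCAP back in the same way but is not an SREBP target, rose. Its level was 11.52 with 4OHT against 10.27 with vehicle in UMRC2 FoxO3 cells and at 10.22 against 8.58 in RCC4 FoxO3 cells. In the other lines it was 10.85 against 10.46 in UMRC2 FoxO1 and 8.97 against 8.28 in RCC4 FoxO1, and 9.86 against 9.99 in UMRC2 EV and 8.65 against 8.65 in RCC4 EV cells. All 4 FoxO pairs were higher with 4OHT and neither EV pair was, and both FoxO3 arrays with 4OHT were the highest of their line. The estimate for FoxO3 was 1.52 ± 0.22 (adjusted p = 0.00479), a 2.86-fold rise.

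SREBF1, which encodes the SREBP more devoted to fatty acid genes, had 7.11 against 8.54 in UMRC2 FoxO3 and 5.00 against 7.77 in RCC4 FoxO3 cells. The other pairs were 8.29 against 8.60 in UMRC2 FoxO1 and 8.69 against 7.70 in RCC4 FoxO1, and 8.49 against 8.14 in UMRC2 EV and 8.13 against 8.71 in RCC4 EV cells. The FoxO3 pairs dropped in both lines, while the RCC4 FoxO1 and RCC4 EV pairs moved in opposite directions, by 0.99 and -0.58, and the FoxO3 estimate of -1.99 ± 0.61 (adjusted p = 0.0664) in limma did not pass. Over the alternatives its adjusted p ran between 0.00741 without either FoxO1 pair and 0.317 without the filter, and it passed with median scaling (0.0293). SREBF2, which encodes the SREBP more devoted to sterol genes, had 9.63 against 10.18 in UMRC2 FoxO3 and 9.53 against 10.01 in RCC4 FoxO3 cells. Other SREBF2 pairs were 10.14 against 10.17 in UMRC2 FoxO1 and 10.09 against 10.00 in RCC4 FoxO1, and 10.50 against 10.24 in UMRC2 EV and 9.91 against 9.91 in RCC4 EV cells. Its FoxO3 arrays with 4OHT were the 2 lowest of the 12, with an estimate of -0.65 ± 0.21 (adjusted p = 0.0839) that did not pass. SCAP, the escort, stood at 9.82 against 9.81 in UMRC2 FoxO3 and 10.32 against 10.42 in RCC4 FoxO3 cells. Elsewhere SCAP stood at 9.56 against 9.70 in UMRC2 FoxO1 and 10.37 against 10.47 in RCC4 FoxO1, and 9.86 against 9.72 in UMRC2 EV and 10.38 against 10.39 in RCC4 EV cells. SCAP hardly moved in any pair, with -0.11 ± 0.20 (adjusted p = 0.78) for FoxO3. STARD4, a carrier of cholesterol between membranes, read 9.02 against 10.18 in UMRC2 FoxO3 and 8.15 against 10.44 in RCC4 FoxO3 cells. In the remaining lines it read 9.65 against 10.09 in UMRC2 FoxO1 and 10.19 against 10.55 in RCC4 FoxO1, and 10.04 against 10.33 in UMRC2 EV and 10.59 against 10.54 in RCC4 EV cells. All 4 FoxO pairs of STARD4 were lower with 4OHT, those of FoxO3 by most. The UMRC2 EV pair was lower too, with a response of -0.30 against -0.44 in UMRC2 FoxO1 cells, while RCC4 EV was at 0.05. STARD4 fell by 1.60 ± 0.35 on the log2 scale with FoxO3 (adjusted p = 0.0217 in limma).

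**Figure D3:**
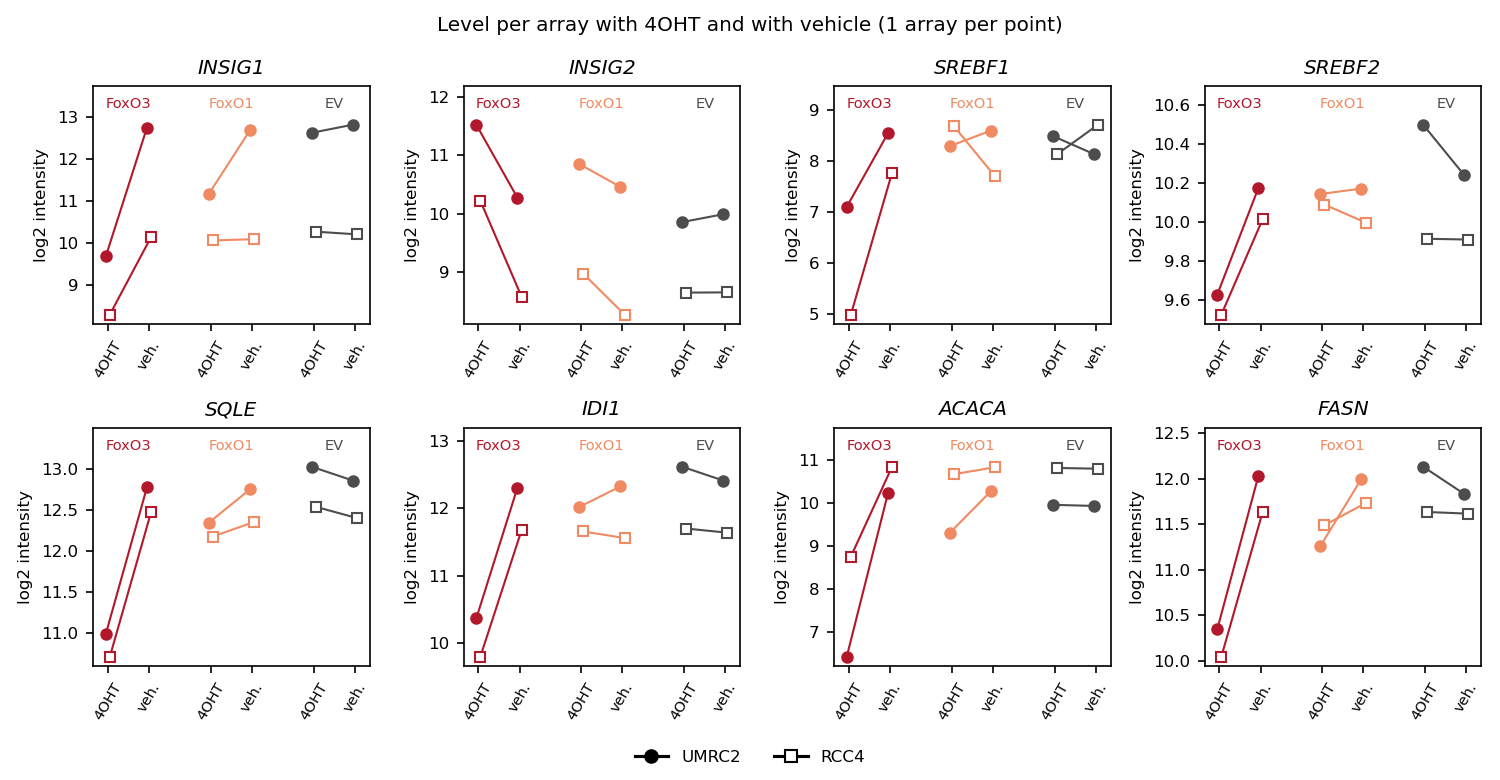
Level (log2 intensity) of INSIG1, INSIG2, SREBF1, SREBF2, SQLE, IDI1, ACACA and FASN in each of the 12 arrays, with 4OHT on the left and vehicle on the right of each pair, filled circles for UMRC2 and open squares for RCC4. Lines join the 2 arrays of 1 engineered line; each FoxO3 line slopes up to its vehicle array except those of INSIG2, which slope down (11.52 against 10.27 in UMRC2 and 10.22 against 8.58 in RCC4).

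With FoxO1 no member passed, and the estimates were smaller in most members. In limma 0 of 35 members fell and 0 rose with FoxO1 relative to EV, where 0% of all genes fell and 0.0840% rose, and 11 members (31.4%) had an unadjusted p under 0.05, against 10.0% of all genes. The median member was at -0.26, and 29 of 35 values were negative, as were 7490 of all 14283 genes. The sterol median was -0.11 and the fatty acid median -0.45. Of these 11, 10 were lower and INSIG2 was higher, at 0.61 ± 0.22 (adjusted p = 0.41). The largest of the 10 were ELOVL6 at -1.32 ± 0.27 (adjusted p = 0.15), FADS2 at -0.96 ± 0.40 (adjusted p = 0.49), LPIN1 at -0.73 ± 0.24 (adjusted p = 0.38) and INSIG1 at -0.71 ± 0.29 (adjusted p = 0.48). Only ELOVL6 was at least 2-fold lower than EV in both FoxO1 pairs, where 1.47% of all genes were. Taken by line, 30 members were below EV in UMRC2 and 24 in RCC4, against 7519 and 7328 of all 14283 genes. Of the members, 5 and 2 were lower than EV by at least 2-fold, a rule not counted over all genes in single pairs. Without subtraction of EV, 2 and 1 members were at least 2-fold lower, against 617 and 553 of all genes.

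The difference between the FoxO3 and FoxO1 responses was tested directly. Its estimate does not use the EV arrays, though its error does, being pooled over all 6 pairs. It passed for 10 members, all lower with FoxO3, where 3.65% of all genes were lower and 2.17% higher. Of the sterol enzymes these were MVD (-1.97 ± 0.41), IDI1 (-1.81 ± 0.18), SQLE (-1.48 ± 0.14), MSMO1 (-1.12 ± 0.17) and FDPS (-0.76 ± 0.16), with adjusted p between 0.00745 for SQLE and 0.0416 for FDPS. Of the fatty acid genes they were ACACA (-2.37 ± 0.37), ELOVL5 (-1.24 ± 0.13), FASN (-1.15 ± 0.21) and SCD (-0.90 ± 0.15), and of the regulators INSIG1, at -1.68 ± 0.29 (adjusted p = 0.0243). SREBF1, at -2.45 ± 0.61 (adjusted p = 0.0618), missed the threshold, with 1 level (5.00, RCC4 FoxO3 with 4OHT) near background, as did ELOVL6 at -0.85 ± 0.27 (adjusted p = 0.12) and INSIG2 at 0.90 ± 0.22 (adjusted p = 0.0576). Without the RCC4 FoxO1 pair only 1 of the 10 still passed, IDI1, and in that line the fusion transcript was lower in FoxO1 than in FoxO3 cells, as given above; the part of fusion level in the difference was not tested.

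**Figure D4:**
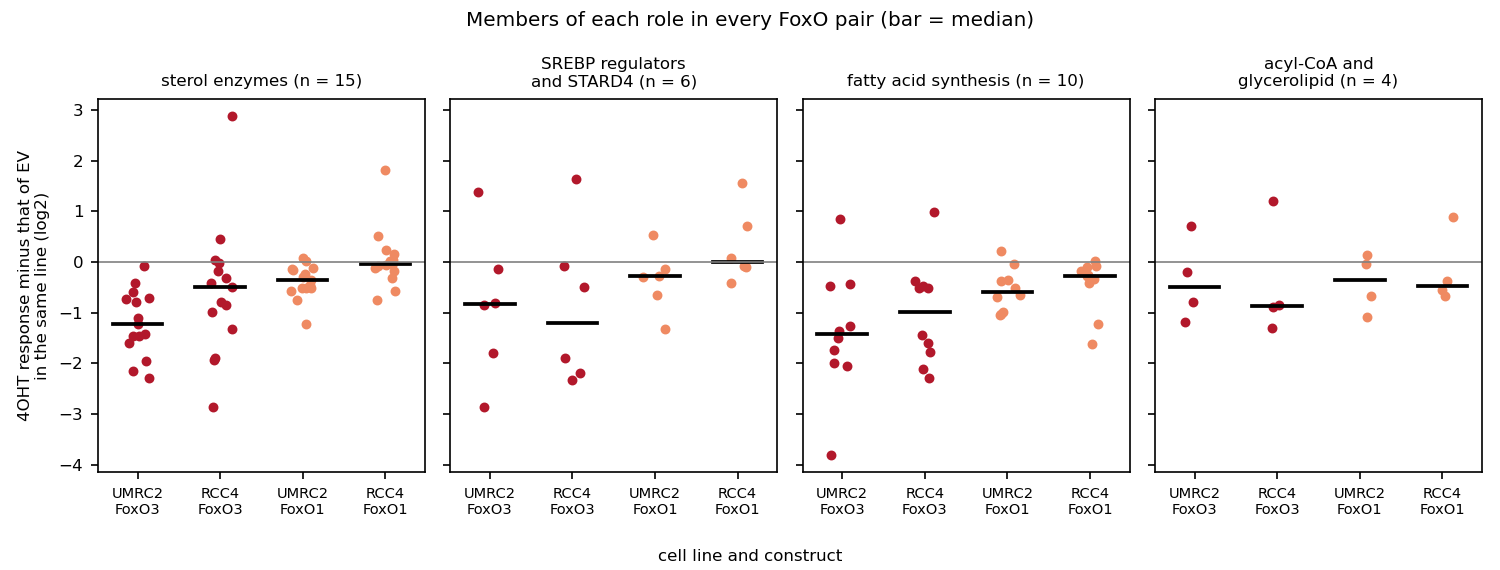
Response beyond EV of the same cell line (log2) for every measured member, by role in 4 panels and by FoxO pair along the horizontal axis, 1 point per gene and a bar at the median. In the sterol panel the medians are -1.22 and -0.49 for UMRC2 and RCC4 FoxO3 and -0.35 and -0.03 for UMRC2 and RCC4 FoxO1; in the fatty acid panel they are -1.43, -0.98, -0.59 and -0.27 in the same order.

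The sterol and fatty acid branches were set beside each other in each line. In UMRC2 FoxO3 cells all 15 sterol enzymes were below EV, with 9 of them by at least 2-fold, as were 9 of 10 fatty acid genes, 7 of them by at least 2-fold. In RCC4 FoxO3 cells 12 of 15 sterol enzymes were below EV, 4 of them by at least 2-fold, and 9 of 10 fatty acid genes, 5 of them by at least 2-fold. Of all 14283 genes, 7660 were below EV in UMRC2 FoxO3 cells and 7819 in RCC4 FoxO3 cells. Without subtraction of EV the 2-fold counts of both branches were the same, against 1559 and 1737 of all genes in UMRC2 and RCC4. The 2-fold counts relative to EV have no such count over all genes beside them. The sterol median was thus -1.22 in UMRC2 and -0.49 in RCC4 for FoxO3. Over both fusions the median sterol difference, UMRC2 minus RCC4, was -0.32, but 0.056 with the values as deposited. No member differed between the lines in its FoxO response in limma, 0 in either direction as for 0% of all genes. Only ACAT2 (2.9% of members) had an unadjusted p under 0.05, against 2.4% of all genes. That test takes FoxO1 and FoxO3 as replicates of a line, although they differed, and its standard errors were wide. PMVK gives an example: its FoxO3 values beyond EV were -1.60 and -0.19 in UMRC2 and RCC4, and its FoxO1 values -1.23 and -0.03. Part of the UMRC2 values is the EV response, 0.56 in UMRC2 and -0.02 in RCC4. The responses themselves were -1.04 and -0.20 with FoxO3, and -0.67 and -0.05 with FoxO1, in UMRC2 and RCC4.

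With both fusions averaged, 14 of 35 members fell and 1, INSIG2, rose relative to EV, where 4.70% of all genes fell and 3.09% rose. The averaged median was -0.68, against -0.05 for all genes. The sterol enzymes that fell were SQLE (-1.18 ± 0.12), IDI1 (-1.14 ± 0.15), DHCR7 (-0.93 ± 0.16), MSMO1 (-0.82 ± 0.15), EBP (-0.68 ± 0.15) and MVD (-1.59 ± 0.36). The fatty acid genes that fell were ELOVL6 (-1.75 ± 0.23), ACACA (-1.77 ± 0.32), FASN (-1.23 ± 0.18), ELOVL5 (-1.02 ± 0.11) and SCD (-0.95 ± 0.13). INSIG1, ACSL1 and LPIN1 completed the 14, and INSIG2 rose by 1.06 ± 0.19 (adjusted p = 0.0186). Without the UMRC2 EV pair the count of 14 dropped to 3, and without the UMRC2 FoxO1 pair to 8.

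No response of these genes to tamoxifen alone was called. In EV cells 0 members fell and 0 rose with 4OHT in limma, as for 0% of all genes. At an unadjusted p under 0.05 there were 0 members, against 2.4% of all genes, so the members do not stand apart. The median member response was 0.05 in UMRC2 EV and 0.03 in RCC4 EV cells. Of the 35 values 11 and 14 were negative, against 6941 and 7099 of all 14283 genes. The largest responses of the same sign in both EV lines were those of MVD (0.35 and 0.68 in UMRC2 and RCC4), FADS2 (0.37 and 0.56), DHCR7 (0.42 and 0.13), HMGCS1 (-0.36 and -0.07) and FASN (0.30 and 0.02). Of those not yet given by array, FADS2 stood at 9.67 against 11.04 in UMRC2 FoxO3 and 8.58 against 8.50 in RCC4 FoxO3 cells. In FoxO1 and EV lines it was at 10.56 against 10.88 in UMRC2 FoxO1 and 8.05 against 8.71 in RCC4 FoxO1, and 11.11 against 10.73 in UMRC2 EV and 8.65 against 8.08 in RCC4 EV cells. HMGCS1 stood at 8.40 against 9.86 in UMRC2 FoxO3 and 8.16 against 8.25 in RCC4 FoxO3 cells. The remaining pairs were 9.20 against 9.85 in UMRC2 FoxO1 and 8.52 against 8.35 in RCC4 FoxO1, and 9.78 against 10.14 in UMRC2 EV and 8.53 against 8.60 in RCC4 EV cells. Both genes were thus lowest of their line in a FoxO array with 4OHT, but in RCC4 by little. There FADS2 was at 8.05 with FoxO1 against 8.08 in EV with vehicle, and HMGCS1 at 8.16 against 8.25 in FoxO3 cells. For MVD and FADS2 the EV rise adds to the size of the FoxO3 and FoxO1 values, which are both taken relative to the same EV arrays.

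Before 4OHT the fusions made no called difference. In the vehicle arrays 0 members were lower and 0 higher in the fusion lines than in EV, as for 0% of all genes, with 4 members (11.4%) at an unadjusted p under 0.05, against 7.2% of all genes, and the member values ran between -0.36 and 0.38.

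The cell lines themselves differed in most members without 4OHT. In limma 24 members were higher and 7 lower in UMRC2 than in RCC4, where 24.0% of all genes were higher and 27.4% lower, but with the values as deposited the counts were 8 higher and 18 lower, and 12 of the 35 changed sign, 8 of them sterol enzymes (DHCR7, EBP, IDI1, LSS, MVK, PMVK, SC5D and SQLE) and the others FASN, SCD, SREBF1 and SREBF2. The members described next kept their sign under both. ACAT2 averaged 11.83 ± 0.05 in UMRC2 and 5.31 ± 0.69 in RCC4 (SD, n = 3 engineered lines each), close to the floor of 4.20 in RCC4. INSIG1 averaged 12.74 ± 0.07 in UMRC2 and 10.15 ± 0.06 in RCC4, and FADS2 10.89 ± 0.15 in UMRC2 and 8.43 ± 0.32 in RCC4. INSIG2, MVD, HMGCS1 and ELOVL6 were also higher in UMRC2, by 1.74, 1.58, 1.55 and 1.41 on the log2 scale. ACSL1 averaged 9.70 ± 0.16 in UMRC2 and 11.02 ± 0.08 in RCC4.

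**Figure D5:**
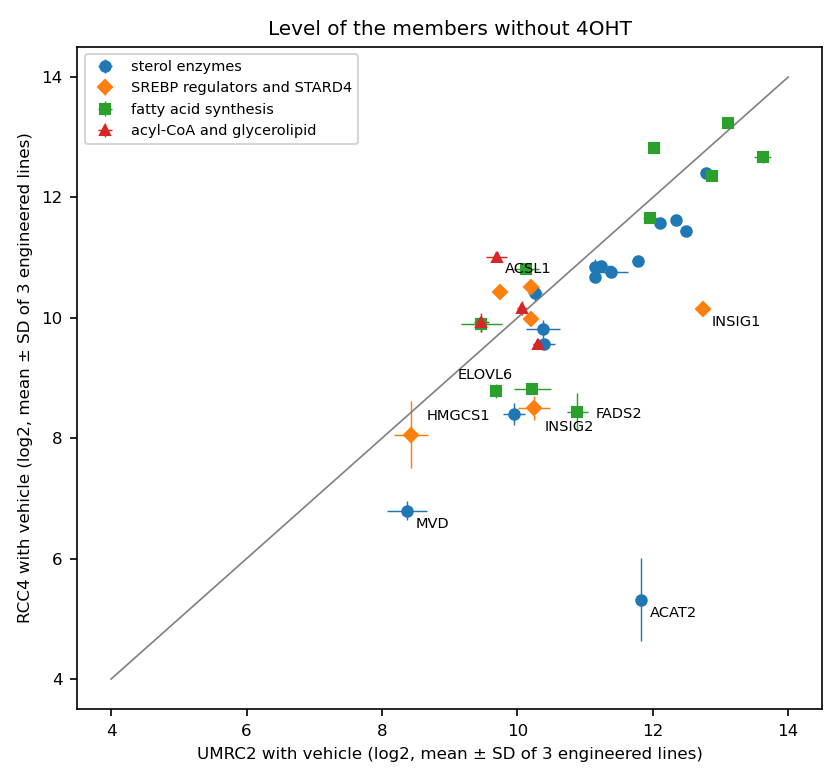
Level (log2) of the 35 members with vehicle in UMRC2 (horizontal axis) and RCC4 (vertical axis), mean ± SD of the 3 engineered lines of each; the grey line marks equal levels. Of 15 sterol enzymes 14 lie below the line, though with the values as deposited 8 of these would lie above it, and ACAT2 lies furthest (11.83 in UMRC2 and 5.31 in RCC4). ACSL1 lies above it (9.70 and 11.02).

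Other genes of the pathways were read from lists, to be set against the 10.0% of all genes that fell and 6.61% that rose with FoxO3. The lists are short, so a single call already comes near those shares, and the counts are given as a description. Of 9 further sterol genes tested, 3 fell and 0 rose with FoxO3: TMEM97, a sterol-responsive membrane protein (-1.84 ± 0.16), LBR, the lamin B receptor with sterol reductase activity (-1.57 ± 0.18), and SCARB1, a lipoprotein receptor (-1.21 ± 0.21), with adjusted p between 0.0015 and 0.0096 in limma. Of 8 further SREBP processing factors 1 fell, ERLIN1 (-1.25 ± 0.20), and 2 rose: MBTPS1, the protease that makes the first cut in SREBP (1.35 ± 0.21), and FBXW7, a ubiquitin ligase subunit that targets SREBP (1.51 ± 0.37). Of 6 LXR genes and targets 0 fell and 1 rose, SMPDL3A (1.65 ± 0.27). Of 19 further fatty acid genes 3 fell, MID1IP1 (-1.57 ± 0.19), which activates acetyl-CoA carboxylase, SCD5 (-0.88 ± 0.23) and ME2 (-0.85 ± 0.22), and 1 rose, ELOVL7 (0.86 ± 0.22). Of 10 further glycerolipid genes only LPIN2 passed, and rose (0.95 ± 0.20). Of 10 genes of fatty acid oxidation and lipolysis 0 passed with FoxO3, 1 having an unadjusted p under 0.05. PPARGC1A, a coactivator of oxidation genes, fell with both fusions averaged (-1.48 ± 0.34, adjusted p = 0.041). The medians of these 6 lists with FoxO3 ran from -0.13 to 0.08, close to that of all genes.

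A probe set is called bright where 2 or more arrays put it at or above their median. Of 40 other bright probe sets, in 21 of the members, 6, in ACACB, ELOVL5, IDI1 and ME1, had the opposite sign to the one used for FoxO against EV, and the others had the same sign. The calls rest on the filter and on a prior variance that follows the level: without either, 0 members passed in any FoxO comparison. With FoxO3, 22 fell at an unadjusted p under 0.05 in limma without the filter and 19 with a constant prior. Shares of all genes are not given for these settings. In the main fit, 77.1% of members and 30.2% of all genes had such a p with FoxO3, in either direction. Across the removal of each pair in turn, 12 of the 21 members called with FoxO3 stayed called (ACACA, DHCR7, ELOVL5, ELOVL6, FASN, IDI1, INSIG1, INSIG2, MSMO1, MVD, SCD and SQLE), and FDPS, EBP, STARD4, ACLY, ME1, ACSS2, ACSL1, ACSL4 and LPIN1 lost the call in at least 1 removal.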

How the data were processed

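The 12 arrays were deposited as MAS5 intensities on a linear scale, per the submitters' processing notes, 1 value per probe set; the version and scaling target are not given in the sources used here. All 54675 probe sets were quantile-normalised, set to a floor at the 20th percentile (intensity 18.4) and put on the log2 scale, from the deposited values. Of them 41091 carry 1 gene symbol in the platform annotation, 1801 several and 11721 none, and 62 are controls. Each gene was read from its brightest single-symbol probe set (19775 genes) and tested where it reached the array median, log2 6.67, in at least 2 arrays. The 6 responses (4OHT minus vehicle) were fitted in limma 3.58.1 (R 4.3.3) on construct and cell line, with moderated variances whose prior follows the mean level (2 residual and 5.44 prior degrees of freedom), and with Benjamini-Hochberg adjustment over 14283 genes at 0.05, two-sided. An error after ± is a standard error from this fit unless called SD, and a value beyond EV is a difference of responses. The line difference in response used the FoxO1 and FoxO3 pairs as replicates. The vehicle comparison of lines used the EV, FoxO1 and FoxO3 lines of each as replicates. No combination was repeated, which limits the precision. The fit was tested on simulated data with known changes. Promoters are from RefSeq (GRCh38.p14).

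Values by array are given for up to 6 called members of each role, taken by the size of the FoxO3 value, for the SREBP regulators, and for the 5 members with the largest like-signed response in both EV lines. The members and lists were chosen with earlier results of these data known. Alternatives tried were median scaling, the deposited values without scaling, a lower floor, no filter, the mean of bright probe sets, a constant prior, no line term, EV not subtracted, FoxO1 and FoxO3 pairs as replicates, and each pair left out in turn.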

Additional observations from a re-analysis of the deposited data

Results flagged for a closer look

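In SC5D and ACAT2, both FoxO pairs of UMRC2 were below EV and both FoxO pairs of RCC4 above it. For SC5D, a desaturase of late cholesterol synthesis, the UMRC2 values beyond EV were -0.60 with FoxO3 and -0.23 with FoxO1, against 0.04 and 0.17 in RCC4, a difference of -0.52 between the lines (adjusted p = 0.9997 in limma). For ACAT2 the UMRC2 values were -1.45 with FoxO3 and -0.35 with FoxO1, against 2.88 and 1.81 in RCC4, a difference of -3.25 (adjusted p = 0.9997). ACAT2 lay near the floor in RCC4, and its RCC4 EV array with 4OHT lay at it. The cause was not tested.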

How the results depend on the processing

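With FoxO3, the 18 members that fell became 0 with a constant prior, 0 without the filter (19 and 22 at an unadjusted p under 0.05), 10 as deposited and 12 to 18 with a pair left out, the fewest without UMRC2 EV. The 3 that rose became 0 with a constant prior, 0 without the filter (3 unadjusted each), 0 as deposited, 1 with median scaling and 1 to 2 with a pair left out, 1 without RCC4 EV and 1 without RCC4 FoxO3. With both fusions, the 14 that fell became 0 with a constant prior (14 unadjusted), 0 without the filter (20), 0 with FoxO1 and FoxO3 pairs as replicates (9), 8 with the mean of bright probe sets, 3 as deposited, 1 at 2-fold in every pair and 3 to 15 with a pair left out. The 1 that rose became 0 under the same settings except the mean of bright probe sets (2, 3 and 2 unadjusted in the first 3), 3 without subtraction of EV and 0 to 1 with a pair left out. With FoxO1, 1 member fell where EV was not subtracted. FoxO3 against FoxO1, 10 lower, became 0 with a constant prior (14 unadjusted), 0 without the filter (17), 2 as deposited and 1 to 13 with a pair left out. The unadjusted counts have no share of all genes under the same settings beside them. In the main fit those shares, in either direction, were 30.2% with FoxO3, 23.1% with both fusions and 21.8% in FoxO3 against FoxO1. Without a filter more genes are tested, and other causes were not tested. As deposited, all genes shifted by a median of 0.050 and -0.92 in UMRC2 and RCC4 cells with FoxO3 and of -0.27 and -0.090 in those with FoxO1, relative to EV, and median scaling gave -0.21 and -0.081 with FoxO3 and -0.21 and 0.082 with FoxO1. UMRC2 against RCC4 with vehicle turned to 8 higher and 18 lower as deposited, with reversed values of -0.38 for DHCR7, -0.30 for EBP, -0.51 for FASN, -0.12 for IDI1, -0.13 for LSS, -0.45 for MVK, -0.17 for PMVK, -0.29 for SC5D, -0.37 for SCD, -0.51 for SQLE and -0.50 for SREBF2, and reversed medians of -0.44 in fatty acid genes, -0.30 in all members and -0.13 in sterol enzymes. The line difference in response also reversed as deposited, to medians of 0.084 in members and 0.056 in sterol enzymes. Of 2905 single-member values under alternatives, 2593 kept their status, 254 lost a call, 47 gained one and 11 reversed. The 2593 include values never called, such as 489 for FoxO1 and 455 for 4OHT in EV cells, where no member was called. They therefore do not measure how often a call held. Of the losses, 97 were with both fusions averaged, 91 with FoxO3 and 54 in FoxO3 against FoxO1.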
